A study of Mus musculus with 4 samples.

Results

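The 10 genes described here are read in the gut as markers of Wnt-driven crypt stem cells: Lgr5, Axin2, Ascl2, Smoc2, Rnf43, Znrf3, Cdca7, Slc12a2, Sox9 and Cd44. They were chosen by name, and each matched 1 of the 30360 gene rows of a single-cell RNA dataset. The cells came from organoids of mouse distal colon, which are hollow epithelial structures kept in Matrigel with IntestiCult medium. Wildtype animals and Tnfr2-/- animals, which carry no TNF receptor 2 (encoded by Tnfrsf1b) in any cell of the body, were 16 weeks of age by their labels. After passage 5 an organoid culture of each genotype received tumor necrosis factor (TNF) from day 1 through day 6, at 20 ng/ml, and another was left untreated (also recorded as vehicle). On day 7 single cells were prepared, apoptotic cells were removed with an Annexin V kit, and 10x Chromium 3' libraries were made. There was 1 library, and so 1 culture, for each of the 4 combinations of genotype and treatment. Every difference below is therefore between single cultures, no test between groups was possible, and the intervals cover counting error only. The study's methods give a younger age than the labels, and donors of both sexes with several mice per genotype. They add an inhibitor of GSK3, a kinase whose inhibition switches Wnt signalling on, to colonoids grown from single cells, and the study states that the organoids of its sequencing experiments were not passaged that far. The labels name no such drug.

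Wnt ligands bind Frizzled and Lrp receptors, which stops the destruction complex from degrading beta-catenin, and beta-catenin then acts with TCF factors on target genes. In the intestine this signal is strongest at the crypt base, where it maintains the stem cells, and R-spondins strengthen it by binding Lgr receptors and drawing the ubiquitin ligases Rnf43 and Znrf3 off the cell surface. Several target genes are themselves brakes, among them Axin2, Rnf43 and Znrf3, so their RNA is commonly used as a readout of the pathway.

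The libraries held between 980 and 2589 cells, with median depths between 26293 and 39112 unique molecular identifiers (UMIs) per cell. Mesenchymal cells, which share these cultures with the epithelium, made up from 8.06% (Tnfr2-/- untreated) to 55.2% (wildtype untreated) of a library. Epithelial cells numbered 1128, 1163, 1023 and 858, and 4 values in a row below always follow this order: wildtype untreated, wildtype TNF, Tnfr2-/- untreated, Tnfr2-/- TNF. The targeted gene Tnfrsf1b stood at 4.17 (3.63 to 4.78), 12.1 (11.1 to 13.2), 1.82 (1.46 to 2.23) and 6.89 (6.10 to 7.75) CPM (UMIs of the gene per 1000000 UMIs) in the epithelium, which checks nothing about the allele, because the deleted part was not given and 3' tags can lie outside it. Classes are those of the authors' deposited annotation. Over all epithelial cells of a library Epcam, Krt8, Krt18 and Cdh1 summed to 7337 to 9119.7 CPM, and over all mesenchymal cells to 98.3 to 536 CPM. The 5 mesenchymal markers (Pdgfra, Vim, Col1a1, Col3a1 and Acta2) summed to 3.87 to 15.8 CPM in the epithelium, with Acta2 at 0 in both Tnfr2-/- libraries. Single epithelial classes held more. Secretory-Reg4-Ang4 in TNF-treated wildtype (246 cells, median depth 1957.5 UMIs) had 597 CPM, and untreated wildtype enteroendocrine cells (33 cells) had 232 CPM. The part of this RNA in the members' levels there was not tested.

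Cells of more than 1 sex were present. Among wildtype epithelial cells, 984 of 1128 untreated and 750 of 1163 TNF-treated cells had an Xist UMI, while 34 and 141 had a UMI of a Y-linked gene. Among Tnfr2-/- epithelial cells, 1012 of 1023 and 849 of 858 had neither, although 86.7% and 93.4% of the mesenchymal cells of the same cultures had Y-linked RNA. Genotype and the sex of the donors can therefore not be told apart. In addition, 3 barcodes occurred in more than 1 library. Without the cells that had Y-linked RNA (wildtype) or Xist (Tnfr2-/-) or a shared barcode, which were 34, 142, 9 and 5 epithelial cells, none of the member counts given below changed and no member's difference turned its sign. The only member differences that moved beyond their counting interval were those between genotypes with TNF over all epithelial cells, to -1.35 for Cdca7 and 0.46 for Cd44.

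Levels are in CPM, from the UMIs summed over the cells of a class in a library and the total UMIs of the same cells, with an exact 95% Poisson interval in parentheses. The map of all 10 genes by class and library shows Lgr5, Ascl2, Cdca7 and Axin2 at their highest in Progenitor.1 or Progenitor.3, and Cd44 at its highest in mesenchyme. Lgr5, the R-spondin receptor that gave the crypt base columnar cell its usual marker, was highest in Progenitor.1 in each library, at 42.7 (40.3 to 45.2), 65.9 (62.3 to 69.8), 68.0 (65.3 to 70.7) and 121 (111 to 130.4) CPM. In the untreated wildtype the class labelled Secretory-Reg4-Spdef-Lyz1 (Spdef secretory below) followed at 18.0 (13.4 to 23.6) CPM, enteroendocrine cells at 15.2 (7.31 to 28.0) CPM and Progenitor.3 at 11.6 (6.75 to 18.6) CPM, and these neighbours in the order overlapped in their intervals. Absorptive cells (319 cells) had 0.498 (0.215 to 0.982) CPM of Lgr5, and their interval overlapped those of the mesenchymal classes. With TNF, the wildtype order after Progenitor.1 was enteroendocrine, Secretory-Reg4-Ang4, Progenitor.3 and Spdef secretory, between 25.3 and 18.6 CPM with overlapping intervals. Progenitor.2 lay below them at 5.83 (4.58 to 7.32) CPM. In Tnfr2-/- cultures Progenitor.2 came closer, at 22.4 (19.6 to 25.5) CPM untreated, below Spdef secretory (29.7) and Progenitor.3 (28.3), whose intervals overlapped it. With TNF it was 39.5 (37.4 to 41.7) CPM, above enteroendocrine cells (26.7), whose interval overlapped it.

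**Figure D1:**
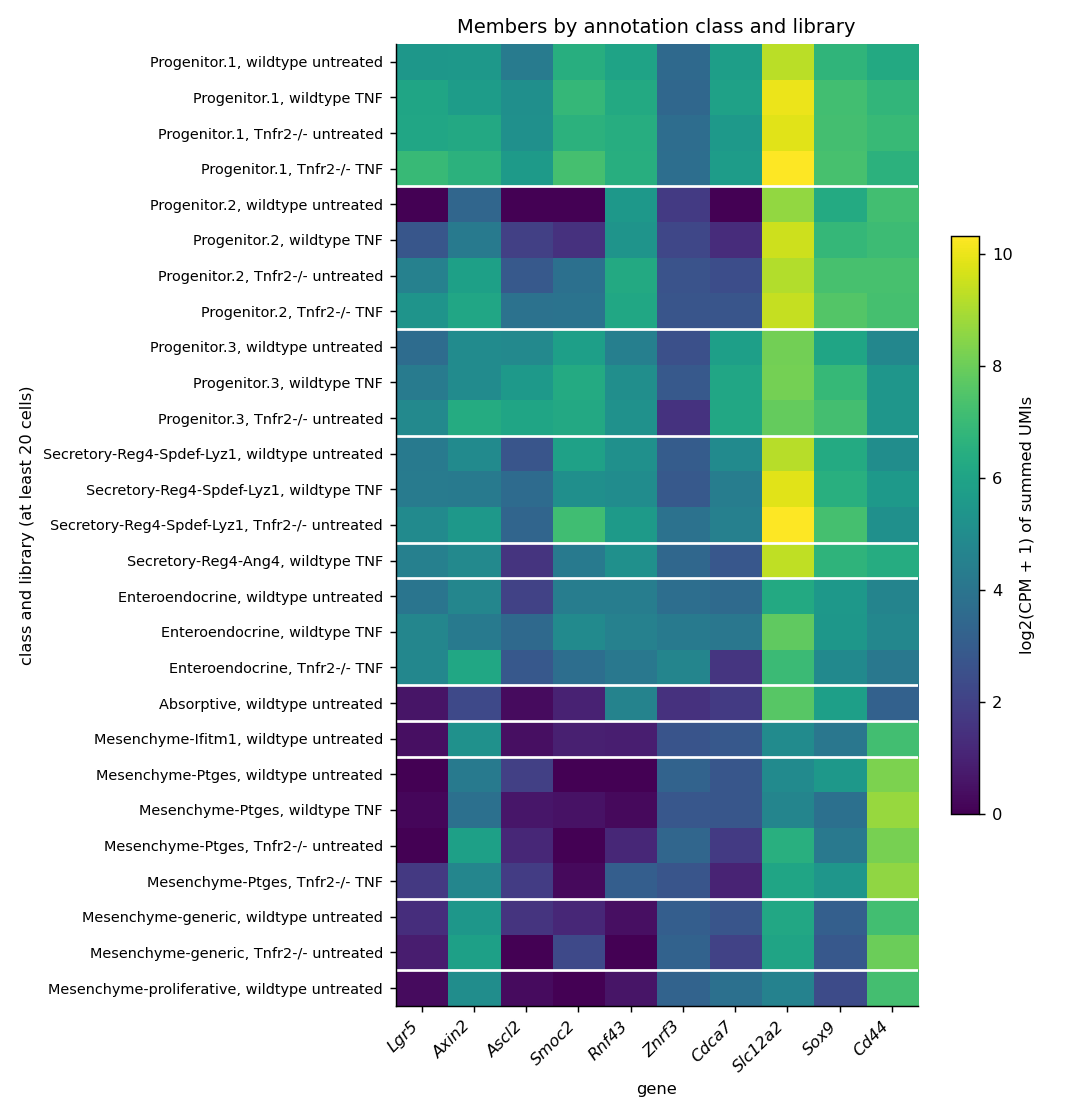
Level of each of the 10 genes, as log2(CPM + 1) of summed UMIs (color), in each annotation class and library with at least 20 cells (rows, with white lines between classes). Lgr5, Smoc2, Ascl2 and Cdca7 were darker in mesenchymal rows and in wildtype Progenitor.2, while Cd44 was brightest in the mesenchymal class named after Ptges.

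The Wnt brakes divided by class. Axin2, the scaffold of the destruction complex, had 43.6 (41.2 to 46.1), 51.4 (48.2 to 54.8), 73.5 (70.8 to 76.4) and 97.5 (89.1 to 106) CPM in Progenitor.1. Its level in Progenitor.3 was 30.7, 30.4 and 79.2 CPM in the first 3 libraries (95, 148 and 51 cells), and in untreated Tnfr2-/- this was the highest of that library, with an interval that overlapped Progenitor.1. Axin2 was lowest in wildtype absorptive cells at 3.80 (2.91 to 4.88) CPM. Rnf43, a ligase that removes Frizzled from the surface, was at 61.8, 76.1, 83.9 and 87.2 CPM in Progenitor.1 and stayed detectable along the absorptive lineage, at 23.4 (21.1 to 25.8) CPM in wildtype absorptive cells. Its relative Znrf3 was sparse, between 1.81 and 24.6 CPM over the 27 class sums with at least 20 cells, and was highest in enteroendocrine cells of the 3 libraries that had at least 20 of them, at 12.2, 17.2 and 24.6 CPM. The intervals of the enteroendocrine and Progenitor.1 levels of Znrf3 overlapped in each of those libraries.

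The transcription factors differed from each other. Ascl2, which specifies the crypt base stem cell state, was highest in Progenitor.3 rather than in Progenitor.1 in the 3 libraries with at least 20 such cells, at 27.9 (20.1 to 37.9), 46.8 (37.1 to 58.2) and 66.0 (45.9 to 91.7) CPM. Progenitor.1 had 18.3 (16.7 to 19.9), 34.3 (31.7 to 37.1), 35.1 (33.2 to 37.1) and 47.8 (42.0 to 54.1) CPM, below Progenitor.3 beyond the intervals in both untreated libraries and within them in the TNF-treated wildtype. Progenitor.3 cells were shallow, with median depths of 7137, 9570 and 6364 UMIs against 43626 to 46629 in Progenitor.1 of the same libraries. Sox9, which crypt progenitors and secretory precursors use, was spread more evenly, at 107, 144, 148 and 156 CPM in Progenitor.1, 65.4, 119 and 149 CPM in Progenitor.3 and 55.2 (51.6 to 58.9) CPM in wildtype absorptive cells.

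Among the remaining genes, Smoc2 encodes a secreted matrix-associated protein, Cdca7 a chromatin protein linked to the cell cycle and to Myc, Slc12a2 the basolateral sodium-potassium-chloride cotransporter, and Cd44 the hyaluronan receptor. Smoc2 had levels of 86.7 (83.3 to 90.3), 114 (109 to 119), 96.8 (93.7 to 100.1) and 152 (141 to 163) CPM in Progenitor.1. In untreated Tnfr2-/- the Spdef secretory class (63 cells) exceeded that, at 140.1 (126 to 156) CPM, whereas in wildtype it had 59.2 and 33.6 CPM. Slc12a2 showed the same placing, with 1266 (1221 to 1312) CPM in that Spdef secretory class and 924 (914 to 934) CPM in Progenitor.1. Spdef secretory and Progenitor.1 levels of Slc12a2 overlapped in the untreated wildtype, at 593 and 596 CPM. Cdca7 was at 55.9, 67.8 and 71.6 CPM in Progenitor.3 and 53.8, 58.1, 46.2 and 50.3 CPM in Progenitor.1. Of the cycling markers, Mki67, Top2a and Birc5 summed to 475 to 633 CPM in Progenitor.1 and 334 to 568 CPM in Progenitor.3.

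The proportions of Progenitor.1 and Progenitor.2 changed between libraries. Progenitor.1 had 546, 335, 647 and 95 cells, and Progenitor.2 had 62, 273, 233 and 716 cells, or 5.50%, 23.5%, 22.8% and 83.4% of the epithelium. Median depth in Progenitor.2 was 15574.5, 39167, 33685 and 37713.5 UMIs. Lgr5, Smoc2 and Cdca7 were at least 2-fold higher in Progenitor.1 than in Progenitor.2 in all 4 libraries, 3 of the 10 members with 8 above the minimum of 20 CPM. Over all genes 8.36% were higher by that rule and 6.52% lower, and no member was lower. Since these classes were clustered on the same RNA, the contrast is a description.

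Lgr5, Smoc2, Cdca7 and Ascl2 were at under 6 CPM in both wildtype Progenitor.2 sums. Lgr5 had 0 UMIs in the untreated class, where 3 UMIs would give 1.79 CPM, and 74 UMIs with TNF, so Progenitor.1 was at least 23.9-fold higher untreated and 11.3-fold higher with TNF. In Tnfr2-/- the fold was 3.03 untreated and 3.05 with TNF. Smoc2 had 0, 1.73, 13.0 and 14.4 CPM in Progenitor.2, which made Progenitor.1 at least 48.5-fold higher in the untreated wildtype and 65.7-fold, 7.44-fold and 10.5-fold higher in the other libraries. For both genes the fold between the classes was larger in the wildtype libraries than in the Tnfr2-/- libraries.

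Cdca7 followed this pattern, with 0, 19, 44 and 191 UMIs in Progenitor.2. Its level in Progenitor.1 was at least 30.1-fold higher in the untreated wildtype and 38.8-fold, 10.4-fold and 8.89-fold higher in the others. Ascl2 had 0, 2.84, 6.36 and 14.0 CPM in Progenitor.2, against which Progenitor.1 was at least 10.2-fold higher in the untreated wildtype and 12.1-fold, 5.53-fold and 3.42-fold higher in the others. It was not counted, because neither class of the untreated wildtype reached 20 CPM. Axin2 had 9.53 (5.45 to 15.5), 18.0 (15.7 to 20.5), 56.9 (52.3 to 61.8) and 67.7 (64.9 to 70.5) CPM in Progenitor.2. Its Progenitor.1 excess was 4.58-fold and 2.86-fold in wildtype and 1.29-fold and 1.44-fold in Tnfr2-/-, so its levels in the 2 classes were closer in Tnfr2-/-.

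Rnf43, Slc12a2, Sox9 and Cd44 were at 39.3 CPM or more in both classes of each library. Rnf43 had 44.1, 39.3, 74.8 and 69.4 CPM in Progenitor.2 and was 1.12- to 1.93-fold higher in Progenitor.1, and Slc12a2 had 397, 737, 547 and 670.3 CPM and was 1.40- to 1.89-fold higher. Znrf3 was low in both, with 2.38, 3.63, 5.25 and 5.66 CPM in Progenitor.2 (4 UMIs in the untreated wildtype), and was 4.42-fold, 2.75-fold, 2.24-fold and 2.17-fold higher in Progenitor.1. Sox9 had 78.0, 117, 158 and 188 CPM in Progenitor.2, below Progenitor.1 in wildtype and above it in Tnfr2-/-. Cd44 was higher in Progenitor.2 in each library, at 144 (127 to 163), 134 (128 to 140.4), 156 (148 to 164) and 155 (150.4 to 159) CPM against 75.6, 108, 121 and 98.5 CPM in Progenitor.1. Other markers moved with the classes: Ly6a, Clu and Anxa1, genes of regenerating epithelium, summed to 11001, 6300.1, 11722 and 7839.98 CPM in Progenitor.2 and 2290.4, 1330.5, 2080.2 and 1275 CPM in Progenitor.1, while Mki67, Top2a and Birc5 summed to 8.34 to 24.6 CPM in Progenitor.2. Absorptive markers (Car1, Slc26a3, Aqp8 and Krt20) summed to 3342, 1785, 729 and 567 CPM there. Their part in the members' levels was not tested.

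**Figure D2:**
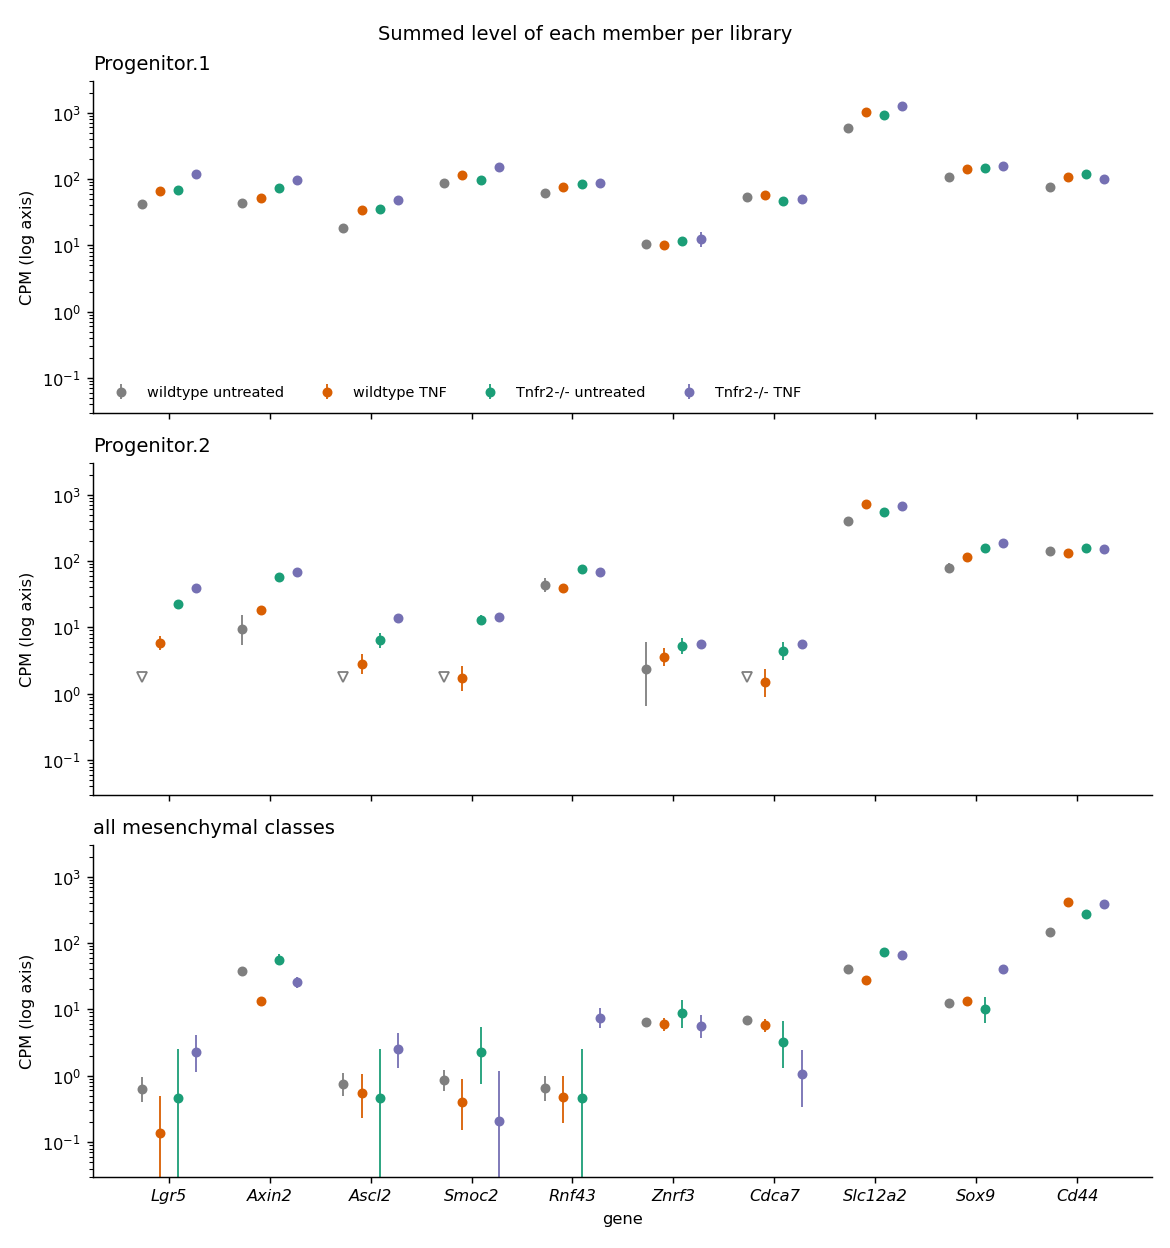
Level of each gene in CPM (log axis) in Progenitor.1, in Progenitor.2 and in all mesenchymal classes; each point is 1 library and bars are exact Poisson 95% intervals of the summed UMIs. Open triangles mark the level that 3 UMIs would give where no UMI was counted. In Progenitor.2 Lgr5 and Axin2 lay higher in both Tnfr2-/- libraries than in both wildtype libraries.

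Mesenchymal cells separated the members again. Lgr5, Smoc2, Rnf43, Slc12a2 and Sox9 were at least 2-fold higher in epithelial than in mesenchymal cells in all 4 libraries, 5 of the 10 members with 7 above the minimum, where 10.4% of all genes were higher by that rule. Cd44 was the 1 member at least 2-fold lower in the epithelium, where 14.8% of all genes were lower. Mesenchymal Lgr5 was 0.632, 0.136, 0.459 and 2.31 CPM, Ascl2 0.747, 0.544, 0.459 and 2.51 CPM, Smoc2 0.862, 0.408, 2.30 and 0.210 CPM and Rnf43 0.661, 0.476, 0.459 and 7.54 CPM. These 4 genes were near 0 there, and the highest values of Lgr5, Ascl2 and Rnf43 fell in the TNF-treated Tnfr2-/- mesenchyme, which also had the highest sum of epithelial markers (536 CPM against 197, 196 and 98.3 in the others); its part in these values was not tested.

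Axin2 and Cd44 were expressed in mesenchyme as well as in epithelium. Axin2 had 37.6 (35.6 to 39.7), 13.3 (11.5 to 15.3), 56.5 (47.0 to 67.4) and 25.6 (21.2 to 30.5) CPM in mesenchyme, more than the epithelium in the untreated wildtype and less in the other 3 libraries. In the untreated wildtype it was present in each mesenchymal class, at 43.1 CPM in the generic class, 36.6 in the class named after Ifitm1, 32.6 in the proliferative class and 17.5 in the class named after Ptges, with overlapping intervals between neighbours. Cd44 had 147, 419, 271 and 389 CPM in mesenchyme, and 307, 422, 294 and 389 CPM in the class named after Ptges, its highest class in each library. That class held nearly all mesenchymal cells of the TNF-treated libraries (304 of 306 and 122 of 122).

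Across all epithelial cells of a library, the comparison between genotypes asks how loss of TNF receptor 2 went with these genes. A difference is log2(CPM + 1) in the first library minus that in the second. The interval beside it is that of the log2 ratio of CPM without the added 1, so it is not an interval of the difference itself. It lies slightly outward at higher levels and further outward at levels of a few CPM, where the difference can sit near its edge. A gene was counted where the difference reached 2-fold with at least 20 CPM in 1 library of the pair. In sums over a mixture of cells, fewer cells of a type and less RNA per cell cannot be told apart. Without TNF, all 10 members had a level above wildtype in Tnfr2-/- epithelium. Of these, 4 were counted as higher (9 reached the minimum), Lgr5, Axin2, Ascl2 and Cd44, and none as lower, where 2.42% of 6021 genes were higher and 3.59% were lower. The makeup of the epithelium moved with this: absorptive cells were 28.3% of untreated wildtype and 1.08% of untreated Tnfr2-/- epithelial cells, and absorptive markers (Car1, Slc26a3, Aqp8 and Krt20) summed to 4084 and 367 CPM. Their part in the members' sums was not tested, and the values within Progenitor.1 are given further on. The median difference of the 10 members was 0.86 and that of all genes at the minimum 0.11. The latter became 0.01 with TMM scaling, so a member's difference relative to all genes was about 0.1 smaller.

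Lgr5 had 1267 UMIs and 25.2 (23.8 to 26.6) CPM in untreated wildtype epithelium and 2828 UMIs and 55.8 (53.8 to 57.9) CPM in untreated Tnfr2-/-, a difference of 1.12 (1.05 to 1.25). Axin2 stood at 28.4, 33.0, 67.6 and 71.0 CPM, Ascl2 at 11.3, 19.9, 27.9 and 18.4 CPM and Cd44 at 51.8, 99.9, 121 and 144 CPM in the 4 libraries. Their untreated genotype differences were 1.22 (1.16 to 1.34), 1.23 (1.16 to 1.45) and 1.21 (1.16 to 1.29). The intervals of the 2 libraries lay apart for each of these 4 genes. Slc12a2 (446, 855, 845 and 745 CPM), Sox9 (85.6, 121, 149 and 181 CPM) and Rnf43 (45.7, 53.1, 79.0 and 70.7 CPM) differed by 0.92, 0.79 and 0.77. Smoc2 (53.1, 60.2, 80.4 and 32.5 CPM) differed by 0.59 and Znrf3 (7.13, 7.25, 10.5 and 6.74 CPM) by 0.50. The smallest difference was that of Cdca7 (33.7, 32.4, 36.4 and 11.4 CPM), 0.11 (0.01 to 0.21), which became -0.01 with median-of-ratios scaling.

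With TNF in both cultures the members no longer moved one way. Axin2 was counted as higher in Tnfr2-/- epithelium, with a difference of 1.08 (1.01 to 1.20), and Cdca7 as lower, with -1.43 (-1.66 to -1.35), from 8 members at the minimum; over 6073 genes 5.04% were higher and 6.37% lower. Lgr5 differed by 0.48 (0.40 to 0.59), Sox9 by 0.58 (0.53 to 0.64), Cd44 by 0.53 (0.47 to 0.59) and Rnf43 by 0.41 (0.33 to 0.50). Smoc2 went the other way at -0.87 (-0.99 to -0.79), while Slc12a2 was at -0.20 (-0.22 to -0.18). The intervals of Ascl2, -0.11 (-0.26 to 0.03), and Znrf3, -0.09 (-0.35 to 0.14), held 0, and both signs turned with TMM scaling (0.04 for each). Axin2 was the only member past 2-fold in the same direction in both genotype pairs.

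Cdca7 and Cd44 lie on chromosome 2, which stood apart between the genotypes. Its genes had median epithelial differences of 0.25 untreated (496 genes) and 0.24 with TNF (471 genes) relative to all genes. Around Cdca7, from 70 to 80 Mb, 27 genes had relative medians of 0.00 and -0.01, and around Cd44, from 100 to 110 Mb, 16 and 14 genes had -0.01 and -0.12.

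Sequence upstream of a start site is shown for the 3 members counted as higher in untreated Tnfr2-/- epithelium that were matched in RefSeq's promoter table for GRCm38.p6. Lgr5, Smoc2, Znrf3, Sox9 and Slc12a2 were not matched. Each is the 250 bases before the annotated start, 5' to 3' on the gene's strand, and overlaps no annotated exon. Axin2 (ENSMUSG00000000142) spans chr11:108920349-108950783 (plus strand), Ascl2 (ENSMUSG00000009248) chr7:142966829-142969264 (minus strand) and Cd44 (ENSMUSG00000005087) chr2:102811141-102901665 (minus strand) in GENCODE M21. The windows are chr11:108920099-108920348 for Axin2, chr7:142969265-142969514 for Ascl2 and chr2:102901666-102901915 for Cd44. Capitals mark CAAAG, the core letters of a TCF site.
Axin2: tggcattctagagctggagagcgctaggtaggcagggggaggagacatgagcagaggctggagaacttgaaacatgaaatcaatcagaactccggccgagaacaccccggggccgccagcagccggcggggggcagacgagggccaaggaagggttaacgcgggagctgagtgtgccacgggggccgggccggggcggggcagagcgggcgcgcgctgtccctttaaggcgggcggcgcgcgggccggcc
Ascl2: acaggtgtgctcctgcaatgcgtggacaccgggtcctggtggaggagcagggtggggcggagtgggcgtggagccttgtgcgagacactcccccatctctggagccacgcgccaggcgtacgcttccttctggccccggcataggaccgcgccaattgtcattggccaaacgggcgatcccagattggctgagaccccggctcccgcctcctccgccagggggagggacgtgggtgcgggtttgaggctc
Cd44: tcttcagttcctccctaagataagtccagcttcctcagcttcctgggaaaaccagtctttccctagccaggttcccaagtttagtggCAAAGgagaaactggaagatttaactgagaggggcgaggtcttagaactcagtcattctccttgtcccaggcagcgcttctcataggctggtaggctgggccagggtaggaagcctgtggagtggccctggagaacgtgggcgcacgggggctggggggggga
The longer TCF motif CTTTGAT or its complement ATCAAAG was in 0 of 6 promoter windows of 5 members and in 3.21% of 32851 windows of this length in the table. Its core, CTTTG or CAAAG, which lies inside the longer motif, was in 1 of the 6, that of Cd44, and in 48.6% of all windows. The Axin2 and Ascl2 windows were 69.2% and 67.6% G and C with 24 and 19 CpG dinucleotides, and the Cd44 window 56.4% with 5, where the medians over all windows were 52.4% and 6. These matches describe letters and show no binding.

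The remaining members are annotated at chr10:115450311-115587780 (Lgr5, ENSMUSG00000020140, minus strand), chr17:14279506-14404790 (Smoc2, ENSMUSG00000023886, plus strand), chr11:87662722-87735539 (Rnf43, ENSMUSG00000034177, plus strand), chr11:5276324-5444847 (Znrf3, ENSMUSG00000041961, minus strand), chr2:72476159-72486893 (Cdca7, ENSMUSG00000055612, plus strand), chr18:57878678-57946821 (Slc12a2, ENSMUSG00000024597, plus strand) and chr11:112782224-112787760 (Sox9, ENSMUSG00000000567, plus strand).

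Epithelial sums mixed classes in unequal proportions, so the class that each gene's UMIs came from was counted. Progenitor.1 gave 54.9%, 44.2%, 72.5% and 12.9% of all epithelial UMIs and Progenitor.2 gave 3.34%, 30.7%, 19.6% and 84.8%. Of Lgr5 UMIs, 93.2%, 82.3%, 88.3% and 31.2% came from Progenitor.1 and 0%, 5.06%, 7.85% and 67.3% from Progenitor.2. The main source of Lgr5 RNA was therefore Progenitor.1 in 3 libraries and Progenitor.2 in TNF-treated Tnfr2-/-. Axin2 behaved alike, with 1.12%, 16.7%, 16.5% and 80.8% from Progenitor.2. Smoc2 and Cdca7 did not: in TNF-treated Tnfr2-/- the 95 cells of Progenitor.1, 11.1% of the epithelium, still gave 60.3% and 56.7% of their UMIs. Cd44 and Sox9 drew 90.8% and 87.9% from Progenitor.2 in that library.

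**Figure D3:**
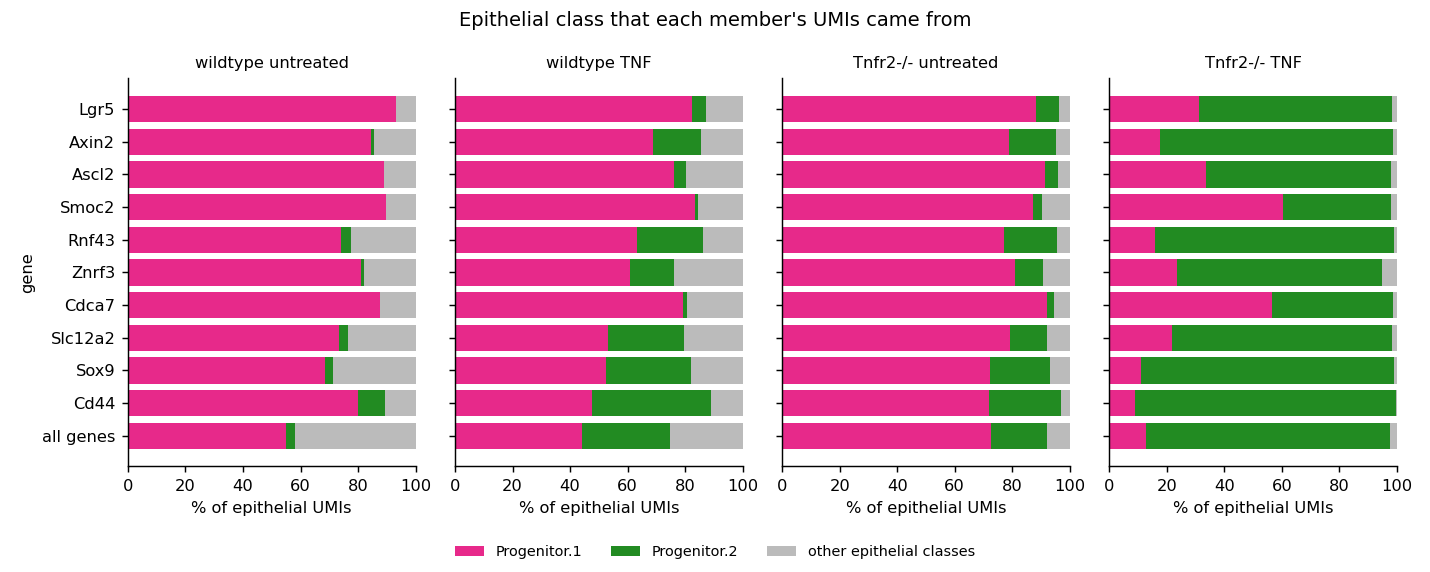
Share of each gene's epithelial UMIs that came from Progenitor.1, Progenitor.2 and the other epithelial classes, in % of epithelial UMIs, for the 4 libraries; the lowest bar gives the same for all genes. In TNF-treated Tnfr2-/- most Lgr5 and Axin2 UMIs came from Progenitor.2, while most Smoc2 and Cdca7 UMIs came from Progenitor.1.

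Within Progenitor.1 no member reached 2-fold between the genotypes in either pair (9 members at the minimum in each). Over all genes 1.15% were higher and 1.1% lower untreated, and 1.29% and 2.04% with TNF. Axin2 differed by 0.74 (0.66 to 0.85) untreated and 0.91 (0.76 to 1.08) with TNF, and Lgr5 by 0.66 (0.57 to 0.77) and 0.86 (0.73 to 1.01). Ascl2 differed by 0.91 (0.79 to 1.09) and 0.47 (0.26 to 0.69). These 3 were higher in Tnfr2-/- in both pairs with intervals above 0. The same was so for Slc12a2 (0.63 and 0.30), Rnf43 (0.44 and 0.19) and Smoc2 (0.16 and 0.41), although Smoc2 untreated became -0.08 as a mean over cells. Cdca7 was lower in both pairs, at -0.22 (-0.32 to -0.12) and -0.20 (-0.41 to -0.01). Cd44 was 0.67 (0.60 to 0.75) untreated and -0.13 (-0.28 to 0.01) with TNF, Sox9 0.47 (0.41 to 0.54) and 0.12 (-6.3e-05 to 0.23), and Znrf3 0.14 (-0.06 to 0.38) and 0.28 (-0.14 to 0.72). The median of the 10 was 0.55 untreated and 0.29 with TNF, against 0.05 and -0.04 over all genes at the minimum. Over all epithelial cells the members' median was 0.86 and 0.16, so it was smaller in Progenitor.1 in the untreated pair only.

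Within Progenitor.2 the same genes lay further apart. Lgr5 had 0 UMIs in 62 untreated wildtype cells and 222 UMIs in 233 untreated Tnfr2-/- cells, where its level was 22.4 (19.6 to 25.5) CPM. With TNF it had 5.83 (4.58 to 7.32) CPM in wildtype and 39.5 (37.4 to 41.7) CPM in Tnfr2-/-, a difference of 2.57 (2.42 to 3.12). Axin2 differed by 2.46 (1.87 to 3.40) untreated, from 16 against 564 UMIs, and by 1.86 (1.72 to 2.12) with TNF, from 228 against 2284 UMIs. With TNF the differences of the lower-level genes were 2.49 (2.44 to 3.74) for Smoc2, 1.96 (1.81 to 2.83) for Ascl2 and 1.41 (1.24 to 2.68) for Cdca7. Levels of these 3 stayed under 20 CPM in both libraries, so the added 1 CPM placed each difference near the lower edge of its interval.

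Sox9, Rnf43, Cd44 and Slc12a2 differed less in Progenitor.2. Sox9 was 1.01 (0.76 to 1.29) and 0.68 (0.60 to 0.77), and Rnf43 0.75 (0.42 to 1.13) and 0.80 (0.68 to 0.96). Cd44 was 0.11 (-0.08 to 0.31) and 0.21 (0.13 to 0.29), and Slc12a2 0.46 (0.35 to 0.58) and -0.14 (-0.17 to -0.10). Znrf3 rested on 4 UMIs in the untreated wildtype and differed by 0.53 (0.17 to 1.14) with TNF. In Progenitor.2 the median of the 10 was 1.73 untreated and 1.11 with TNF. That of the 6 at the minimum was 0.88 and 0.74. The untreated 1.73 depends on the added 1 CPM, because Lgr5, Ascl2, Smoc2 and Cdca7 had 0 UMIs in wildtype. Over all genes at the minimum the median was 0.05 and -0.04, and the share of all genes past 2-fold was not counted in this class. The plot of the differences shows that Lgr5, Axin2, Ascl2, Smoc2 and Cdca7 separated the genotypes more in Progenitor.2 than in Progenitor.1. Genes of other lineages moved with these values in Progenitor.2 with TNF: goblet markers (Muc2, Zg16, Clca1, Tff3 and Spdef) summed to 690.2 CPM in wildtype and 1781 CPM in Tnfr2-/-, and absorptive markers to 1785 and 567 CPM. Their part was not tested.

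**Figure D4:**
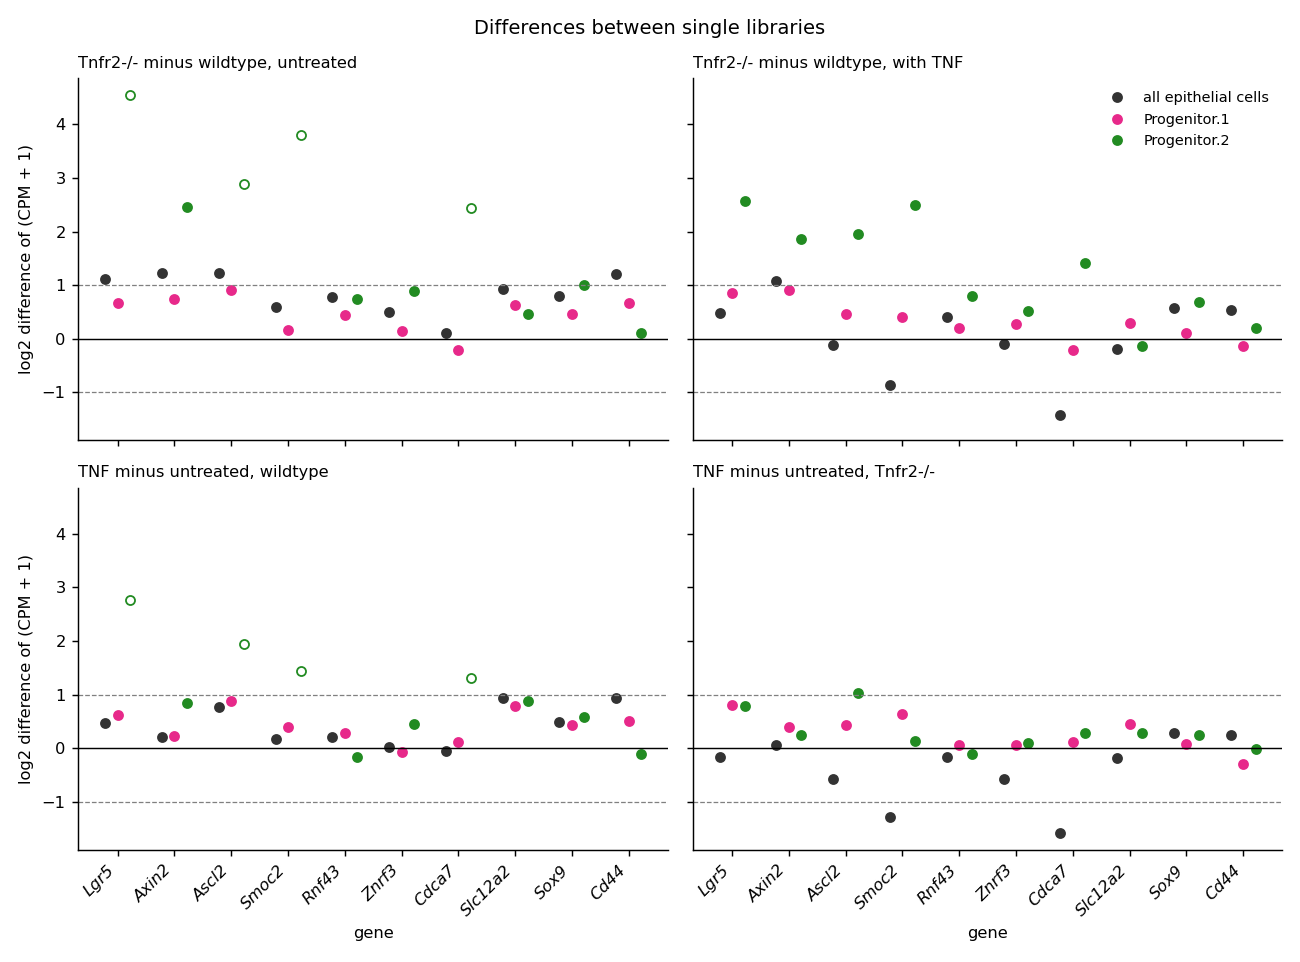
Difference in log2(CPM + 1) between 2 single libraries for each gene, over all epithelial cells, in Progenitor.1 and in Progenitor.2; dashed lines mark 2-fold. Open circles have no UMI in the second library, so their height depends on the added 1 CPM. In both genotype panels Progenitor.1 points stayed within the dashed lines, while Lgr5 and Axin2 lay above them in Progenitor.2. The share of all genes past 2-fold was not counted in Progenitor.2.

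The comparison of TNF-treated with untreated cultures gave different pictures for the sums and for the classes. In wildtype epithelium no member reached 2-fold in either direction from 8 at the minimum, where 2.54% of 5833 genes were higher and 1.08% lower. The nearest were Slc12a2 at 0.94 (0.92 to 0.96) and Cd44 at 0.93 (0.88 to 1.02), followed by Ascl2 at 0.77 (0.66 to 0.98), Sox9 at 0.50 (0.44 to 0.56) and Lgr5 at 0.47 (0.38 to 0.60). Axin2, Rnf43 and Smoc2 had 0.21, 0.21 and 0.18, and each of these turned negative as a mean over cells (-0.07, -0.03 and -0.39). The intervals of Znrf3, 0.02 (-0.20 to 0.25), and Cdca7, -0.06 (-0.16 to 0.05), held 0.

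In Tnfr2-/- epithelium TNF went with lower Smoc2, -1.28 (-1.40 to -1.22), and lower Cdca7, -1.59 (-1.82 to -1.52). These 2 were counted as lower and no member as higher from 9 at the minimum, where 5.55% of 6143 genes were higher and 7.81% lower. Ascl2, at -0.58 (-0.74 to -0.47), and Znrf3, at -0.57 (-0.86 to -0.43), were below 0 as well. Lgr5, at -0.16 (-0.25 to -0.08), and Rnf43, at -0.16 (-0.23 to -0.09), came to 0.00 and 0.01 with median-of-ratios scaling. Slc12a2 had -0.18 (-0.20 to -0.16), Axin2 0.07 (-0.0015 to 0.14), Cd44 0.25 (0.20 to 0.30) and Sox9 0.29 (0.24 to 0.34). Cell cycle genes were lower together with Smoc2 and Cdca7: 11 of 12 listed genes were at least 2-fold lower in this comparison, and Mki67 stood at 103, 125, 147 and 35.9 CPM in the 4 libraries. Their part in the members' values was not tested.

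With Progenitor.1 and Progenitor.2 given equal weight, 0 members were counted as lower with TNF in Tnfr2-/- instead of 2. Within Progenitor.1 alone, no member reached 2-fold with TNF in either genotype (9 at the minimum), where 1.84% of all genes were higher and 0.615% lower in wildtype, and in Tnfr2-/- the shares were 1.08% and 0.933%. Lgr5 was higher with TNF in both genotypes, by 0.61 (0.51 to 0.74) in wildtype and 0.82 (0.70 to 0.95) in Tnfr2-/-. Smoc2 was higher by 0.39 (0.31 to 0.48) and 0.64 (0.54 to 0.76), Ascl2 by 0.87 (0.74 to 1.08) and 0.43 (0.24 to 0.64), and Slc12a2 by 0.79 (0.76 to 0.82) and 0.45 (0.41 to 0.49). Axin2 differed by 0.23 (0.11 to 0.36) and 0.40 (0.27 to 0.55). Thus Smoc2 and Cdca7, both lower in the Tnfr2-/- sum, were not lower in Progenitor.1, where Cdca7 had 0.11 (-0.0035 to 0.23) and 0.12 (-0.07 to 0.31). Cd44 split, at 0.51 (0.43 to 0.61) in wildtype and -0.29 (-0.43 to -0.16) in Tnfr2-/-. Rnf43 (0.29 and 0.05), Sox9 (0.43 and 0.08) and Znrf3 (-0.07 and 0.06) moved least in Tnfr2-/-.

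In Tnfr2-/- Progenitor.2, TNF went with more Lgr5, 0.79 (0.61 to 1.03), and more Ascl2, 1.02 (0.75 to 1.54). The other 8 members there lay between -0.11 and 0.29. In wildtype Progenitor.2, Slc12a2 was 0.89 (0.78 to 1.01), Axin2 0.85 (0.18 to 1.75) and Sox9 0.58 (0.32 to 0.85) with TNF. Lgr5, Ascl2, Smoc2 and Cdca7 had 0 UMIs in the untreated class, so no fold was taken.

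The share of cells with at least 1 UMI was taken after thinning every cell to 5000 UMIs, which left out 405 of 6155 cells, and was set beside that in mesenchyme. Lgr5 was found in 19.8% (16.5 to 23.4), 24.2% (19.7 to 29.1), 26.2% (22.9 to 29.8) and 34.0% (24.6 to 44.5) of Progenitor.1 cells (48.5%, 62.4%, 72.6% and 88.4% without thinning). In Progenitor.2 it was found in 0 of 56 wildtype untreated cells, where 3 cells would be 5.36% and the Clopper-Pearson upper limit was 6.38%. In the other libraries it was found in 2.22% (0.820 to 4.77), 8.89% (5.51 to 13.4) and 16.2% (13.6 to 19.1) of Progenitor.2 cells (0%, 8.42%, 24.9% and 38.8% without thinning). The upper limit of the untreated wildtype overlapped the interval of untreated Tnfr2-/-. Mesenchymal cells had 0.0706%, 0%, 0% and 0.833%, at median depths of 22642.5, 48633, 24549 and 37644.5 UMIs. Progenitor.1 shares overlapped between the genotypes in each treatment, and the Progenitor.2 share in TNF-treated Tnfr2-/- lay apart from both other libraries in which the gene was found.

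Axin2 was found in 21.8%, 21.2%, 29.2% and 44.7% of Progenitor.1 cells and 5.36%, 7.41%, 16.9% and 25.5% of Progenitor.2 cells (68.9%, 72.8%, 87.5% and 88.4% and 14.5%, 26.4%, 55.8% and 68.3% without thinning). Mesenchymal cells, which express Axin2 (above), had 16.9%, 6.04%, 29.1% and 10.8%. In Progenitor.1 the Axin2 intervals of the genotypes lay apart both untreated and with TNF. With TNF the genotypes also lay apart in Progenitor.2 for Lgr5, Axin2, Ascl2 (0.741% and 5.49%), Smoc2 (2.22% and 6.48%), Rnf43 (18.5% and 28.6%) and Sox9 (30.4% and 47.5%), each higher in Tnfr2-/-. Mesenchymal shares of Ascl2 and Smoc2 were at most 0.833% and 1.16%.

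**Figure D5:**
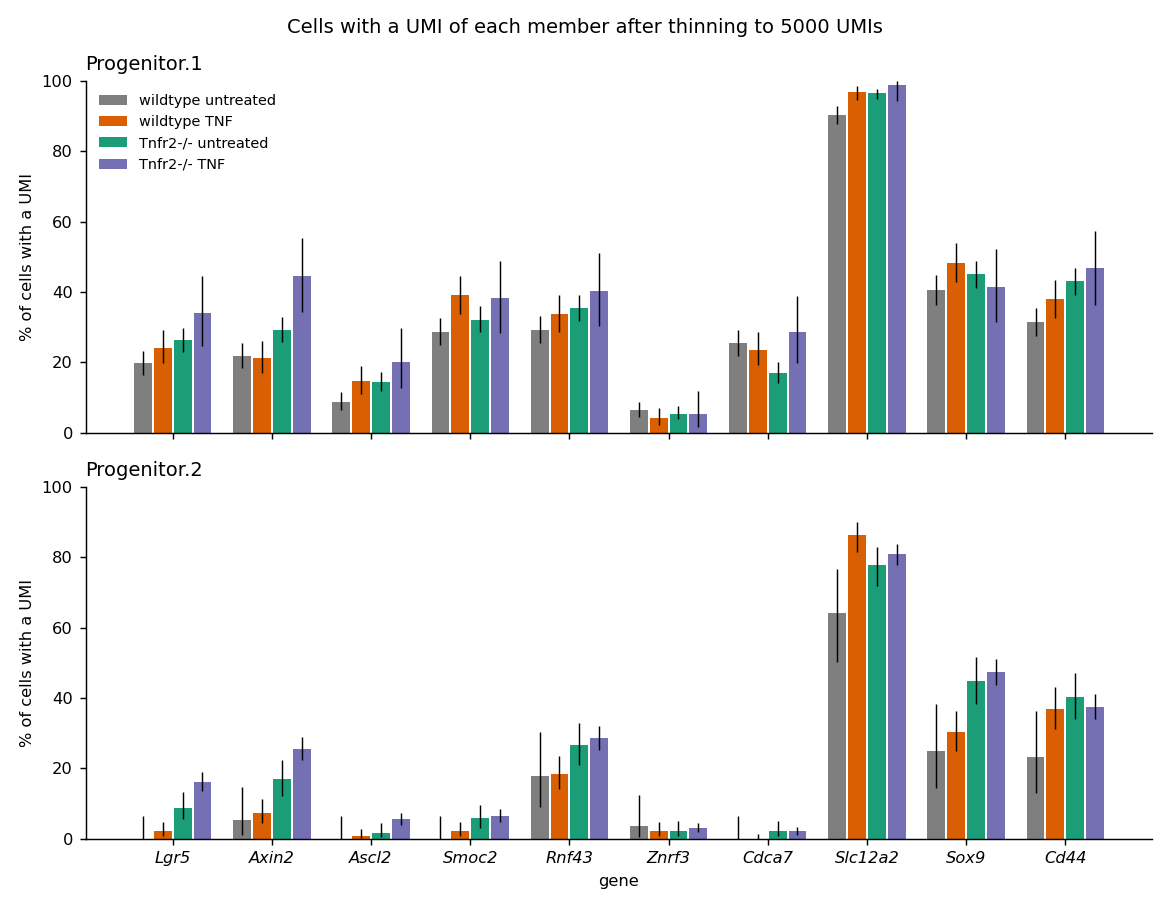
Share of cells (%) with at least 1 UMI of each gene after thinning every cell to 5000 UMIs, in Progenitor.1 and Progenitor.2; bars are libraries and lines are exact 95% Clopper-Pearson intervals. In Progenitor.2 Lgr5 was in 0% and 2.22% of wildtype cells and 8.89% and 16.2% of Tnfr2-/- cells.

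Single cells carried several of the 10 genes at once. After thinning, a Progenitor.1 cell had UMIs of 3.03, 3.44, 3.45 and 3.99 of the 10 on average, and 19.2%, 27.2%, 23.6% and 37.2% of cells had 5 or more. Progenitor.2 cells had 1.39, 1.87, 2.28 and 2.53 on average, and 0%, 1.85%, 5.33% and 8.87% had 5 or more. In untreated wildtype Progenitor.1, Smoc2 was found in 63.9% (54.1 to 72.9) of cells with an Lgr5 UMI and 20.1% (16.4 to 24.2) of cells without, the widest gap among the members. Axin2 was found in 38.9% and 17.6% of these 108 and 438 cells, Cd44 in 44.4% and 28.3%, and Ascl2 in 17.6% and 6.62%, each with intervals apart. Sox9, at 40.7% and 40.4%, and the cycling gene Mki67, at 38.0% and 32.6%, overlapped in their intervals between the same cells. In TNF-treated wildtype Progenitor.1 (81 cells with and 254 without) they lay apart for Smoc2 (58.0% and 33.1%) and Rnf43 (48.1% and 29.1%). Cdca7 (37.0% and 19.3%) and Axin2 (33.3% and 17.3%) were apart there too, and the other members overlapped. In untreated Tnfr2-/- Progenitor.1 the intervals lay apart for Smoc2 alone among the members, at 53.3% of 169 cells and 24.6% of 475 cells. Those of Cdca7, 24.3% (18.0 to 31.4) and 14.5% (11.5 to 18.0), only just overlapped. In TNF-treated Tnfr2-/- Progenitor.1, with 32 and 62 such cells, they lay apart for 0 members.

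In TNF-treated Tnfr2-/- Progenitor.2, 115 cells had an Lgr5 UMI and 595 did not. Axin2 was found in 45.2% (35.9 to 54.8) of cells with an Lgr5 UMI and 21.7% (18.4 to 25.2) of cells without. Smoc2 was found in 20.9% and 3.70% of them, Ascl2 in 13.0% and 4.03%, and Rnf43 in 41.7% and 26.1%, with intervals apart. They lay apart also for Slc12a2 (95.7% and 78.2%), Znrf3 (9.57% and 1.68%) and Cdca7 (6.96% and 1.18%). Cd44, at 32.2% and 38.7%, had overlapping intervals. Sox9 was at 44.3% and 48.1%, and Mki67 at 3.48% and 1.68%, so few of these Lgr5 cells had cycling RNA. The cells of a class came from 1 culture each, so these shares describe cultures and are no replicated comparison.

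Likeness to Lgr5 was measured as Pearson's r of log2(CPM + 1) over the 27 class sums, which share libraries, among 10113 genes. The nearest were Wnk2 (0.94), Cldn2 (0.92), Smoc2 (0.92), Sorcs2 (0.91) and Tspan12 (0.91). Among the members Ascl2 followed at 0.85, Rnf43 at 0.81, Slc12a2 at 0.78, Sox9 at 0.74, Cdca7 at 0.66, Axin2 at 0.53 and Znrf3 at 0.38, and Cd44 was at -0.42. The genes most like Axin2 over the 27 sums were Prdm16 (0.78), Ythdf1 (0.78), Eif3a (0.76), Ttc9c (0.71) and Prpf19 (0.71). Over the 19 epithelial sums alone, Axin2 was at 0.86 to Lgr5, and Eif3a (0.88), Lgr5 (0.86) and Pdcd11 (0.86) were nearest to Axin2. Its low value over all classes thus went with the mesenchymal sums.

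The rest of the pathway was read from lists of genes by role, counted in the epithelium by the same rule and read against the same background shares. No Wnt ligand of 14 reached 20 CPM untreated, and with TNF Wnt7b, at 2.64, 2.47, 13.3 and 28.1 CPM, was the 1 ligand at the minimum; it was counted as higher in Tnfr2-/- and, within Tnfr2-/-, with TNF. None of the 4 R-spondins and none of 11 secreted inhibitors reached the minimum in the epithelium, where Rspo4 had 0.139, 0.218, 0.237 and 0.101 CPM and the inhibitor Dkk2 0.636, 0.339, 0.948 and 1.56 CPM. Of 17 receptors, 4 or 5 did, and Lrp5, a Wnt co-receptor, was counted as higher in Tnfr2-/- in both pairs, with 12.6, 18.8, 30.5 and 46.2 CPM and differences of 1.21 and 1.25. Ryk, a receptor for Wnt ligands and the gene of this list with the highest mean CPM, was at 73.1, 67.3, 72.3 and 60.1 CPM. No receptor was counted in Progenitor.1. Of the 11 cytoplasmic components, 6 reached the minimum in each comparison and 0 were counted; Ctnnb1, which encodes beta-catenin, had 203, 388, 372 and 559 CPM. Of the 7 nuclear factors, at most 2 reached it and 0 were counted; Tcf7l2, the main TCF factor of the gut, had 72.5, 91.2, 87.7 and 133 CPM.

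Of 15 other crypt base genes, 7 to 9 reached the minimum. Hopx, named after its value was seen, was counted as lower with TNF in Tnfr2-/-, and no other was counted in any of the 4 comparisons. Prom1, a surface protein of crypt cells, had 154, 233, 158 and 259 CPM. The 12 cell cycle genes were the list that moved with the epithelial sums of Smoc2 and Cdca7. Besides the 11 that were lower with TNF in Tnfr2-/-, 8 of 10 were lower in Tnfr2-/- than in wildtype with TNF, and 0 were counted in the untreated pair, with TNF in wildtype, or in Progenitor.1 in any comparison.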

How the data were processed

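Single-cell RNA was measured in 4 libraries, 1 for each combination of genotype and treatment, and each cell was placed by its library number, for which the cell table lists 1 genotype and 1 treatment. The deposited matrix holds raw counts of UMIs for 30360 genes in 6155 cells, which the authors obtained with Cell Ranger 5.0.0 on mm10 (per the submitters' processing notes) and loaded in monocle3, where cells under 100 UMIs and doublets of epithelium and mesenchyme were removed and clusters were named. The annotation release is not given in the sources used here. No doublet caller was run. The 31 untreated wildtype and 4 untreated Tnfr2-/- cells without a class count among the cells of a library but entered no class sum. The former had a median of 66566 UMIs and held 5502 CPM of epithelial and 2273 CPM of mesenchymal markers. The shallowest cell held 894 UMIs.

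UMIs were summed per class and library (at least 20 cells) and scaled to CPM with Python 3.11.15, numpy 2.4.6, scipy 1.17.1 and pandas 2.3.3; figures used matplotlib 3.10.9. Genes were counted at a 2-fold difference in log2(CPM + 1), a pseudocount of 1 CPM, with at least 20 CPM in 1 library of a pair, or in every library of a contrast between classes. Levels carry exact Poisson intervals at 95%, and shares of cells, after random thinning to 5000 UMIs per cell, carry Clopper-Pearson intervals. Reads of a UMI count once, but cells of a culture are not replicates, so these intervals and the floor of 3 counts cover counting error only. The procedure was tested on simulated data.

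The 10 members are always named. From the pathway lists, genes counted in both pairs of the genotype or TNF comparison over epithelial cells, and the gene of each list with the highest mean CPM in epithelium and in mesenchyme, are named, as are the 5 genes most like Lgr5 and Axin2. Members and lists were chosen with earlier results of these data known. Alternatives were other pseudocounts (0.1 and 10 CPM), minima (none and 50 CPM), a 1.5-fold difference, TMM factors (edgeR 4.0.16 in R 4.3.3, used for these factors alone), median-of-ratios factors, a mean over cells, cells with at least 10000 UMIs, equal weight for Progenitor.1 and Progenitor.2, and other thinning depths. Leaving out cells by sex-linked RNA or shared barcode was added after seeing the data. Positions are those of GENCODE M21 on GRCm38, matched by Ensembl identifier (30240 genes matched, 120 not).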

Additional observations from a re-analysis of the deposited data

Results flagged for a closer look

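In 5 cases the change with TNF went one way in wildtype and the other way in Tnfr2-/-, with both counting intervals clear of 0 and opposite signs also under TMM scaling. With 1 library per group these differences were not tested. Over all epithelial cells, Ascl2 was higher with TNF in wildtype (0.77 on the log2 scale) and lower in Tnfr2-/- (-0.58), so that the Tnfr2-/- change minus the wildtype change was -1.35. For Smoc2 the changes were 0.18 and -1.28, a gap of -1.46, although the wildtype value became -0.39 as a mean over cells. Slc12a2 had 0.94 and -0.18, a gap of -1.12, but its Tnfr2-/- value came to -0.02 with TMM and -0.01 with median-of-ratios scaling. Lgr5 had 0.47 and -0.16, a gap of -0.64, but its Tnfr2-/- value came to -0.0029 with TMM and 0.0048 with median-of-ratios scaling. Its opposite sign under TMM therefore rests on a value near 0. Rnf43 had 0.21 and -0.16 over all epithelial cells, and the second value turned positive with TMM scaling. Within Progenitor.1 the genotypes split for Cd44, with 0.51 in wildtype and -0.29 in Tnfr2-/-, a gap of -0.80. Ascl2, Smoc2, Slc12a2 and Lgr5 had changes above 0 in both genotypes within Progenitor.1. The share of epithelial cells in that class was 48.4% and 28.8% in untreated and TNF-treated wildtype and 63.2% and 11.1% in Tnfr2-/-, and its part in the epithelial values was not tested.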

How the results depend on the processing

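No paired analysis was possible because each group had 1 library, and for the same reason no replicate could be left out. Among recomputed counts of members, 170 stayed within 1.5 times the reported count and 18 did not, and for these the cause was not tested. With a 1.5-fold difference, members higher in untreated Tnfr2-/- epithelium went from 4 to 8, members lower in Tnfr2-/- with TNF from 1 to 2 and members higher with TNF in wildtype epithelium from 0 to 2. In Progenitor.1 the same setting gave 5 higher members in place of 0 between untreated genotypes, 2 between genotypes with TNF, 3 with TNF in wildtype and 2 with TNF in Tnfr2-/-. With a pseudocount of 10 CPM, 2 members were higher in untreated Tnfr2-/- epithelium, and 0 were higher and 0 lower with TNF. As a mean over cells the first count was also 2, with Axin2 and Cd44 left in both. With a minimum of 50 CPM, 0 members were lower in Tnfr2-/- with TNF, 1 was lower with TNF in Tnfr2-/- (Smoc2), 1 was higher in Progenitor.1 than in Progenitor.2 (Smoc2) and 2 were higher in epithelium than in mesenchyme (Slc12a2 and Sox9). With equal weight for Progenitor.1 and Progenitor.2, 2 members were higher in Tnfr2-/- with TNF (Lgr5 and Axin2), 0 were lower, and 0 were lower with TNF in Tnfr2-/-. Of the members' log2 differences, 414 recomputed values stayed within their counting interval, 146 moved beyond it and 0 of those past 2-fold changed sign. Of the shares of Progenitor.1 cells, 115 moved with the thinning depth and 5 did not, so they hold at 5000 UMIs only. Untreated wildtype Progenitor.2 (62 cells) was the shallowest of these classes, and the floor of 3 counts set beside a count of 0 was 1.79 CPM there.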

Other observations

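Mesenchymal cells held the ligands that were near 0 in the epithelium. Wnt5a, a ligand mostly tied to beta-catenin-independent signalling, stood at 505, 204, 307 and 132 CPM in mesenchyme (untreated and TNF-treated wildtype, then untreated and TNF-treated Tnfr2-/-). Rspo3, an R-spondin of the crypt niche, had 70.2, 63.9, 111 and 54.9 CPM there, while none of the 4 R-spondins reached 20 CPM in the epithelium. Sfrp2, a secreted Wnt inhibitor, had 347, 109, 405 and 718 CPM. Wnt5a was lower in the TNF-treated culture of both genotypes, whereas Sfrp2 was lower with TNF in wildtype and higher in Tnfr2-/-. Mesenchymal cells numbered 1430, 306, 90 and 122, and their classes differed between the libraries; the part of these proportions in the levels was not tested. Lef1, a TCF factor, had 142, 83.7, 169 and 154 CPM in mesenchyme, where Axin2 was also expressed. The genes of the other lists with the highest mean CPM in mesenchyme were the receptor Ryk (269, 149, 181 and 140.0 CPM), the kinase Csnk1a1 (373, 296, 387 and 279 CPM), the cyclin Ccnd1 (114, 611, 123 and 186 CPM) and the topoisomerase Top2a (82.0, 91.2, 29.9 and 36.7 CPM).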
